A study of Rattus norvegicus with 2 samples.

Results

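Among the 191 miRNA entries of the rat left ventricle that could be given a ratio between the libraries, 6 were followed here: mir-22, mir-191a, mir-26a, mir-26b, mir-10a and mir-10b. They were chosen by their measured abundance, as members of the most abundant ventricular miRNAs or as their paralogues, with the values of both libraries known. Their shares and ratios are therefore a description of these libraries, and no test was attached to them. All 6 names were listed in both libraries. Small RNA came from Wistar rats aged 16 weeks, as 1 library from a control group and 1 from a group trained by swimming, with 2 sessions of 90 minutes a day for 8 weeks. Both groups had free access to feed and water. Training of this kind is used as a model of physiological heart growth, and the study profiled the small RNAs of such hearts. How many animals stand behind a library was not given in the sources used here, and no measure of heart size was used here.

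A miRNA is cut from a hairpin precursor and guides a silencing complex to messenger RNAs, mainly by base pairing through its seed, bases 2 to 8 of the mature strand. The miRNA mir-22 is abundant in striated muscle, and in mice its loss alters the growth response of the heart to stress. The miRNA mir-191a is made in many tissues and shares a host gene, Dalrd3, with mir-425. The mir-26 miRNAs lie in genes for small C-terminal domain phosphatases. The mir-10 miRNAs lie in the Hox clusters, whose genes pattern the body axis, and mir-10a has been studied in endothelium.

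The mature sequences are shown because the deposited rows carry hairpin names, which do not tell the arm. Paralogues that differ at few bases can also share reads. All sequences are from RefSeq (build GRCr8), 5′ to 3′, with the seed in capitals. RefSeq entries were found for 6 of the 6 hairpins. For mir-22 both arms are given, and for the others the 5p arm, which is the arm generally known as the main product.
miR-22-3p: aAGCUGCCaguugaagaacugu
miR-22-5p: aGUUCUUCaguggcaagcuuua
miR-191a-5p: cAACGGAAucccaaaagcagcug
miR-26a-5p: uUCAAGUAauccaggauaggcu
miR-26b-5p: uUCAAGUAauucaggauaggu
miR-10a-5p: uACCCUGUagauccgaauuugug
miR-10b-5p: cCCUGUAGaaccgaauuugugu

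The mir-26 strands share the seed UCAAGUA, which no other of the 724 mature rat miRNAs in the RefSeq table carries. Counted from 1 at the 5′ end of miR-26a-5p, the miR-26b-5p strand differs by C11U and C21U over the 21 aligned bases, so their seeds are the same while their reads can be told apart at those positions. The mir-10 strands differ by U12A alone over 21 aligned bases, counted from the 5′ end of miR-10a-5p. RefSeq begins miR-10b-5p at the base that aligns with position 3 of miR-10a-5p, so the annotated seeds differ, ACCCUGU against CCUGUAG. The mir-10b hairpin holds the missing bases just before the annotated start, and a strand begun 2 bases earlier would have the seed of miR-10a-5p. The hairpins show this, with the annotated arms in capitals.
mir-10a: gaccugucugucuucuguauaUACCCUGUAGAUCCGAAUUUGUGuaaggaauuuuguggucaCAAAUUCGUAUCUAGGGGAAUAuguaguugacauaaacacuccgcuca
mir-10b: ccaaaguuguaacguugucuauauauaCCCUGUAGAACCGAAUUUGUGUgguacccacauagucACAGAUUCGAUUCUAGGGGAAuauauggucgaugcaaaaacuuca

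The seeds of miR-22-3p, miR-22-5p and miR-191a-5p are carried by no other mature miRNA of that table. Where the reads of each hairpin began and which arm they came from is not held in the row counts.

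The 6 hairpins lie at separate loci of GRCr8, each on the plus strand. The mir-22 hairpin is at chr10:60805331-60805425 and overlaps no other gene of the annotation used here, with Tlcd2 as its neighbour on the right. The mir-191a hairpin is at chr8:118142627-118142717 within Dalrd3, and on the opposite strand the hairpin of Mir3555 overlaps it. The hairpin of mir-425 lies 366 bases further on, within the same gene. The mir-26a hairpin is at chr8:127633048-127633137 within Ctdspl, and the mir-26b hairpin at chr9:83425709-83425793 within Ctdsp1. The mir-10a hairpin is at chr10:81779709-81779818, between Hoxb5os and Hoxb4. The mir-10b hairpin is at chr3:80035859-80035967, within the span annotated as Hoxd4. Exon and intron borders were not used here.

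Summed over the miRNA entries, the depth was 2460845 counts in control and 3219939 in swim, or 1.31 times as many. The share of an entry is its percentage of that total, CPM is the same quantity as counts per 1000000, and the ratio of swim to control is the ratio of CPM. Each group having 1 library, the spread between animals was not measured and the groups could not be tested against each other. Each 95% interval of a share or ratio below is an exact binomial interval, that of a change in a count ratio between entries is a Woolf interval, both cover counting error only, and reads copied by PCR are not independent molecules. An entry was called at least 2-fold higher or lower when its log2 ratio (pseudocount 0.5) reached 1 in size and its interval excluded 1. The deposited tables have a first part of high-count entries and a second part of low-count entries, ordered separately. Values rest on the reading that the deposited whole numbers are unscaled counts.

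The most abundant of the 6, mir-22, was read 365669 times in control and 336195 times in swim. Its share was 14.9% in control (interval 14.8 to 14.9%) and 10.4% in swim (10.4 to 10.5%). It stood at rank 2 in control and rank 3 in swim, where mir-30a had passed it. The ratio was 0.703 (0.699 to 0.706) on library totals, below 1 under each scaling tried except median-of-ratios factors, where it was 1.06. Those factors give low-count entries the same weight as abundant ones. On the scale of raw counts too the swim library held fewer mir-22 reads, although that library was deeper.

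The entry mir-191a, a widely expressed miRNA, had 130585 counts in control and 110129 in swim. Its share was 5.31% (5.28 to 5.33%) in control and 3.42% (3.40 to 3.44%) in swim. Its rank went from 7 to 8, behind the endothelial miRNA mir-126a in swim. The ratio was 0.645 (0.639 to 0.650), the lowest of the 6, and it stayed below 1 under every scaling tried, though at 0.973 under median-of-ratios factors.

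The mir-26 paralogues were near even between the libraries on library totals. The entry mir-26a had 150510 counts in control and 213606 in swim, shares of 6.12% and 6.63%, and rank 6 in both. Its ratio was 1.08 (1.078 to 1.092). The entry mir-26b had 18861 counts in control and 23935 in swim, shares of 0.766% and 0.743%. Its ratio was 0.970 (0.951 to 0.989), and with raw counts, TMM factors or median-of-ratios factors it lay above 1. Summed over both paralogues the mir-26 reads took 6.88% of the counts in control and 7.38% in swim, a ratio of 1.07 (1.065 to 1.079) which is not altered by moving reads from either row to the other, though it would be if shared reads had been counted in both rows.

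The mir-10 paralogues differed from each other. The entry mir-10a had 231927 counts in control and 319350 in swim, shares of 9.42% and 9.92%, and rank 4 in both. Its ratio was 1.05 (1.047 to 1.058), and it lay just below 1 when the total left out the 6 entries, when the row Others was added to the total, or when the median of the table's first part was set to 1. The entry mir-10b had 40393 counts in control and 71223 in swim, shares of 1.64% and 2.21%. Its ratio of 1.35 (1.33 to 1.36) was the highest of the 6 and stayed above 1 under every scaling tried. It moved from rank 12 to rank 11. Summed over both, the mir-10 reads took 11.1% of the counts in control and 12.1% in swim, a ratio of 1.096 (1.091 to 1.102).

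**Figure D1:**
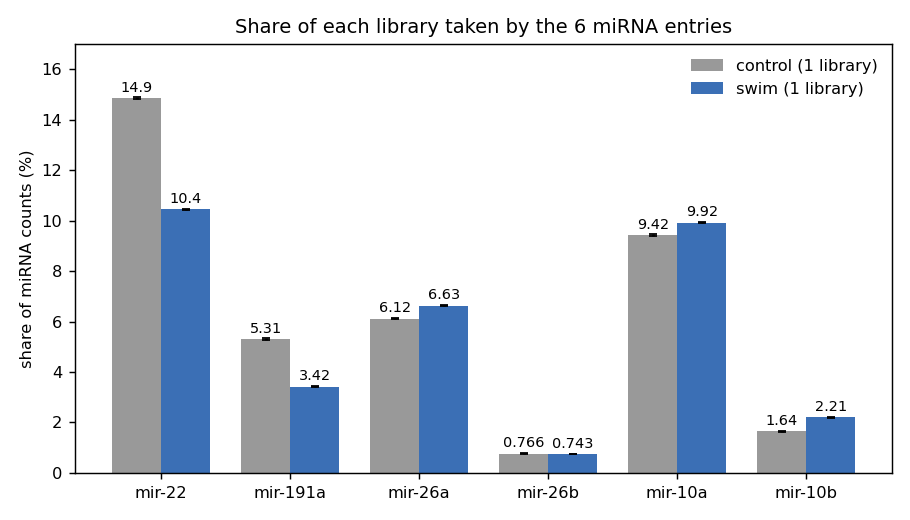
Share of the miRNA counts of each library (percent, y axis) taken by the 6 entries (x axis), in grey for the control and in blue for the swim library; bars are single libraries and the whiskers are 95% exact binomial intervals, which are narrow because of the high counts. The bars of mir-22 go from 14.9 to 10.4% and those of mir-191a from 5.31 to 3.42%, while those of mir-10b go from 1.64 to 2.21% and the other entries are close to even.

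Together the 6 entries took 38.1% of the counts in control and 33.4% in swim. That difference came from mir-22 and mir-191a, which together took 20.2% of control and 13.9% of swim. The mir-26 and mir-10 entries together took 17.9% of control and 19.5% of swim. Over all miRNA entries, the shares that were smaller in swim were smaller by 10.3 percentage points in sum, since shares add up to a fixed total. Of this sum mir-22 made up 43.1% and mir-191a 18.4%, the highest contributions of any entry on library totals. Next came mir-143, a miRNA of vascular smooth muscle, with 12.3%. On the other side mir-30a, of a family abundant in heart muscle, made up 51.7% of the summed gains, and mir-10b made up 5.57%, mir-26a 5.05% and mir-10a 4.81%.

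None of the 6 entries was called. The 173 entries tested (20 or more counts in sum) include numbered copies of a hairpin with equal counts. Of the 173, 3.47% were called at least 2-fold higher and 32.9% at least 2-fold lower. The members were picked with these ratios known, so nothing is read from that comparison. The scaling sets the call of mir-10b, whose ratio was 2.03 (2.01 to 2.06) under median-of-ratios factors and then passed the rule. With a size rule of 1.5-fold, mir-191a alone of the 6 was called, as lower, where 47.4% of all tested entries were. Of the 40 most abundant entries, 3 were lower by more than 1.5-fold, mir-191a among them. Of the 57 lower calls, 56 stood in the low-count second part of the table and none was a member. The parts overlap in control count, since some first-part entries had fewer than the 795 control counts of mir-29b in the second part. How the parts were set was not given, so nothing is read from where the lower calls stood. The median log2 ratio was 0.01 over the 6 entries, -0.59 over all tested entries and 0.07 over the 40 most abundant entries. The 6 were chosen with their values known and are among those 40, so nothing is read from how near these medians lie. In that group of 40, which includes the 6, 23 entries had a ratio above 1 and 17 below on library totals.

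**Figure D2:**
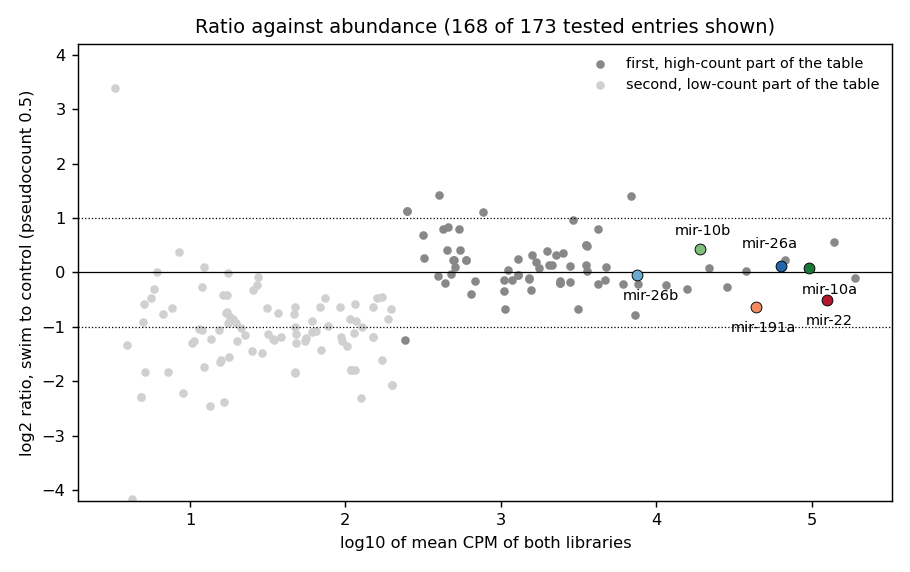
Log2 ratio of swim to control (y axis, pseudocount 0.5, library totals) against the log10 of the mean CPM of both libraries (x axis) for 168 of the 173 tested entries, with 5 lying below the axis; coloured points are the 6 named entries, grey points the others by part of the table, and dotted lines mark 2-fold. All 6 lie between the dotted lines among the most abundant entries, with mir-191a and mir-22 below 0 and mir-10b above it. The 5 entries below the axis each had a count of 1 in swim.

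An order of ratios within the same pair of libraries does not depend on the scaling. In the high-count first part of the table (75 entries), the 6 lowest ratios belonged to mir-301a, mir-99b, mir-1, mir-100, mir-191a and mir-22. Of the 40 most abundant entries only mir-99b and mir-100 had a lower ratio than mir-191a. For mir-22 there were 3 with a lower ratio, namely mir-99b, mir-100 and mir-191a. These 4 were also the only ones of the 40 with fewer raw reads in swim than in control. At the other end, mir-10b had 7 of the 40 above it and 32 below. The entries mir-26a, mir-10a and mir-26b lay in the middle, with 23, 19 and 16 of the 40 below them.

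Ratios of counts between entries of a single library also cannot be altered by such a divisor. In control mir-22 had 1.58 times the count of mir-10a and in swim 1.05 times, so that the most abundant pair of the 6 had come close to equal. Relative to mir-10a, mir-22 stood at 0.668 (0.663 to 0.672) of its control level. Set against mir-30a, the count of mir-22 was 1.32 times as high in control but 0.629 times in swim, so their order was reversed. Relative to the cardiomyocyte miRNA mir-133a, mir-22 went from 2.40 times to 1.43 times, and relative to the smooth muscle miRNA mir-143 from 0.751 to 0.563 times. Relative to these 4 entries mir-22 was lower in swim than in control, by differing amounts. Relative to mir-1, another cardiomyocyte miRNA, it was higher in swim, at 127 times the count of mir-1 against 113 times in control.

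The entries mir-22 and mir-191a stayed close to each other. The count of mir-22 was 2.80 times that of mir-191a in control and 3.05 times in swim, or 1.09-fold more (1.080 to 1.100). The mir-26 pair changed by a similar amount, mir-26a being 7.98 times mir-26b in control and 8.92 times in swim, or 1.12-fold more (1.096 to 1.141). The mir-10 pair changed more, since mir-10a was 5.74 times mir-10b in control and 4.48 times in swim. Relative to mir-10a, mir-10b was thus 1.28-fold higher in swim (1.264 to 1.298). The mature strands of that pair differ at a single aligned base. How reads matching more than a single hairpin were assigned was not given in the sources used here. Some numbered copies of a hairpin hold equal counts in both libraries, as both copies of mir-29b do (795 in control, 246 in swim). Other copies differ, those of mir-125b by little (3898 and 3890 in control). The part that read assignment plays in the change of the mir-10 pair was not tested.

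Of the 15 pairs that the 6 entries form, the counting interval of the change excluded 1 in 15, as it does for small changes at such counts. The changes ran from 1.03-fold for mir-26a relative to mir-10a to 2.09-fold for mir-10b relative to mir-191a. In 6 of the 15 pairs the change was at least 1.5-fold, and each of these set mir-22 or mir-191a against a mir-26 or mir-10 entry.

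**Figure D3:**
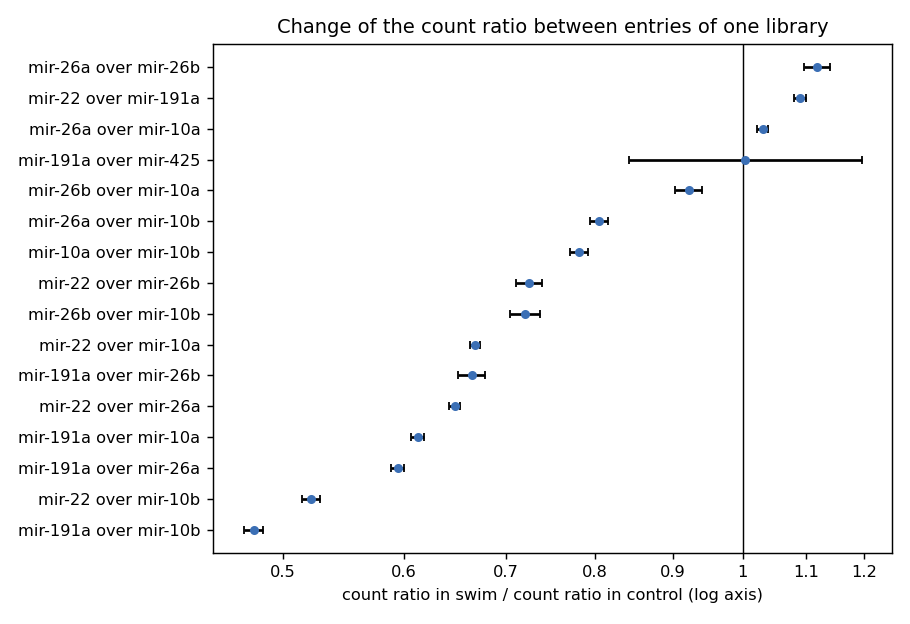
Change of the count ratio between entries from the control to the swim library (x axis, log scale, 1 meaning no change) for the 15 pairs of the 6 entries and for mir-191a over mir-425; points are single values and whiskers 95% Woolf intervals for counting error. The lowest point is mir-191a over mir-10b at 0.478, the highest mir-26a over mir-26b at 1.12, and mir-191a over mir-425 lies at 1.00 with a wide interval.

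The neighbour of mir-191a in Dalrd3, mir-425, was far less abundant and had nearly the same ratio. Its mature strand bears no seed in common with that of mir-191a.
miR-425-5p: aAUGACACgaucacucccguuga
It had 275 reads in control and 231 reads in swim, and its ratio was 0.642 (0.537 to 0.767), against 0.645 for mir-191a, and like that of mir-191a it is moved by the scaling. The count of mir-191a was 475 times that of mir-425 in control and 477 times in swim, which is 1.00-fold the control value (0.843 to 1.196). The interval is wide enough to allow a change of up to 1.196-fold in this pair. The entry mir-425 stands in the low-count second part of the table, where the median log2 ratio was -1.12, against -0.64 for mir-425. Other entries of that part came about as near to mir-191a in ratio, such as mir-361 at 0.646 and mir-872 at 0.642. Since mir-191a stands in the first part, their count ratio also rests on both parts being scaled alike.

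The miRNAs mir-99a, mir-99b and mir-100 are related to mir-10 in sequence, and mir-125 genes lie beside them. Their strands are shown to set the seeds side by side.
miR-10a-5p: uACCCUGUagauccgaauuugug
miR-100-5p: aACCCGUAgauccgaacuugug
miR-99b-5p: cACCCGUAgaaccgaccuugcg
Aligned without gaps, miR-100-5p begins at position 2 of miR-10a-5p and differs from it by C3A, U6C and U18C over 22 bases. The related list of 7 entries, which also held mir-425, had no called entry, a median log2 ratio of -0.32 and ratios from 0.578 to 0.927, all below 1 on library totals. The entry mir-100 had 9550 counts in control and 7842 in swim, a ratio of 0.628 (0.609 to 0.647). For mir-99b the counts were 22944 and 17349 and the ratio was 0.578 (0.567 to 0.589). The count of mir-10a was 24.3 times that of mir-100 in control and 40.7 times in swim, and 10.1 times that of mir-99b in control and 18.4 times in swim. Relative to mir-10a, all 5 of the entries mir-99a, mir-99b, mir-100, mir-125a and mir-125b-1 were lower in swim, by 1.14-fold for mir-125b-1 to 1.82-fold for mir-99b, and this holds under any scaling.

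By likeness of ratio over the 2 libraries, among those of the 40 most abundant entries that are not members, the nearest to mir-22 were mir-100 and mir-181a-1 (ratio 0.811). The nearest to mir-191a were mir-100 and mir-99b. For mir-26a they were mir-27a (1.08) and mir-30b (1.09), and for mir-26b mir-143 (0.936) and mir-126a (1.01). For mir-10a they were mir-23b (1.05) and mir-378a (1.06), and for mir-10b mir-145 (1.32) and mir-29a (1.39). With a single library per group such likeness rests on 1 ratio for each entry. By abundance, and again leaving out the members themselves, the entries next above and below mir-22 in control were mir-143 and mir-30a (1.47), and those around mir-191a were mir-133a (1.18) and mir-126a. With mir-191a left out as a member, those around mir-26a were also mir-133a and mir-126a. Around mir-26b stood mir-21 (0.866) and let-7a-2 (0.858), around mir-10a mir-30a and mir-133a, and around mir-10b mir-181a-1 and mir-30d (0.847).

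Of 20 miRNA names studied in cardiac growth, 19 were listed, in 20 entries of which 19 were tested. Of these, 1 was called higher, mir-208b at 2.64 (2.58 to 2.71), from an intron of the slow myosin gene Myh7. Another 4 were called lower, which are both copies of mir-29b, mir-214 and mir-222. The copies of mir-29b hold the same counts, 795 in control and 246 in swim, so they are not separate measurements. Over all tested entries 3.47% were called higher and 32.9% lower. The median log2 ratio of the tested entries was -0.15, against -0.59 over all tested entries. On library totals 9 of the tested entries had a ratio above 1 and 10 had a ratio below 1. The summed share of this list was 25.02% in control and 31.6% in swim, and within it mir-30a alone took 11.3% and 16.6% of the counts. Since shares add up to a fixed total, nothing is read from the direction of that sum.

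The labelled tissue was set beside markers of cell types, with no other ventricular library used to compare their levels. All 6 of the cardiomyocyte miRNAs sought (mir-1, mir-133a, mir-133b, mir-208a, mir-208b and mir-499) were listed, and they summed to 7.09% of the counts in control and 8.95% in swim. Of that sum mir-133a alone made up 6.19% and 7.28% of the counts. The entry mir-1 held only 0.131% in control and 0.082% in swim, at ranks 48 and 54. Of the 6, mir-1 (ratio 0.624) and mir-208a (0.899) lay below 1 on library totals. With raw counts, TMM factors or median-of-ratios factors mir-208a passed 1. The endothelial mir-126a took 3.75% and 3.80%. The smooth muscle pair mir-143 and mir-145 took 19.97% and 18.8%, and the 3 fibroblast-associated miRNAs mir-21, mir-199a and mir-214 took 0.965% and 0.885%. Of 5 leukocyte miRNAs 4 were listed, with 0.712% and 0.699%, and of 3 erythroid miRNAs mir-144 alone was listed, with 72 counts in control and 80 in swim. In a piece of tissue, fewer cells of a type and less miRNA per cell cannot be told apart. The part of cell makeup in the ratios of the 6 entries was not tested.

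The choice of scaling moved the ratios by more than counting error did. For mir-22 the counting interval ran from 0.699 to 0.706, while the ratio ran from 0.650 with the row Others added to the total to 1.06 under median-of-ratios factors. Relative to library totals, median-of-ratios factors moved every log2 ratio by 0.59, raw counts by 0.39 and TMM factors by 0.30. Leaving the 6 entries out of the total or adding Others moved them by -0.11 each. Median-of-ratios factors give each entry the same weight. Of the tested entries, 98 stood in the second part of the table, with a median log2 ratio of -1.12. The 75 of the first part held 99.2% of the control counts, with a median of 0.09. Under library totals 3 of the 6 entries lay above 1, under median-of-ratios factors 5 did, and with Others added 2 did. The entries mir-191a (below 1) and mir-10b (above 1) kept their side under all 7 other scalings.

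**Figure D4:**
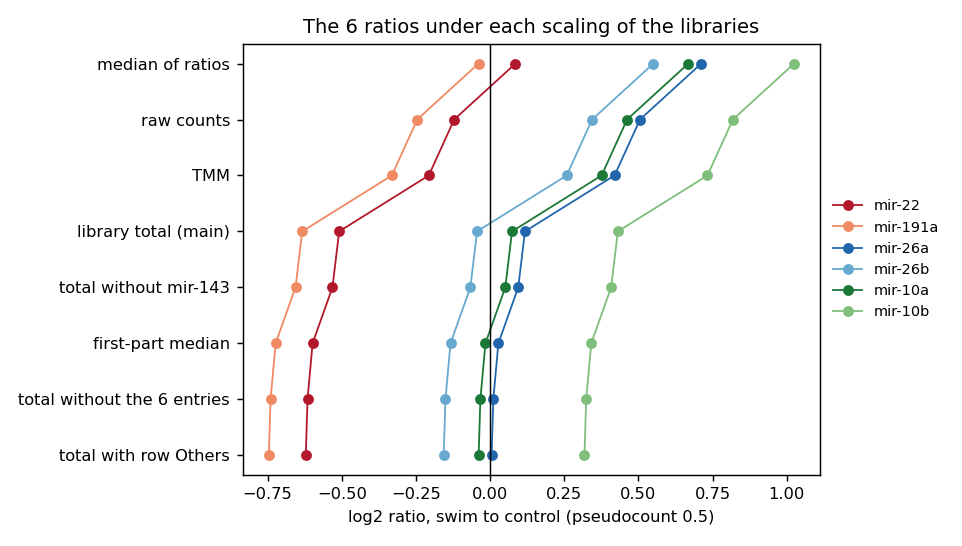
Log2 ratio of swim to control (x axis, pseudocount 0.5) of the 6 entries under each way of scaling the libraries (y axis); each line joins the values of 1 entry, and the vertical line marks equal levels. All lines shift together, mir-22 crosses 0 under median-of-ratios factors at 0.09, and mir-10b reaches 1.02 there, while the order of the 6 entries is the same in each setting.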

How the data were processed

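For either library the authors deposited a table of counts by hairpin name, and how reads were assigned and counted to make it was not given in the sources used here. Its whole numbers give unlike totals for the libraries, and they were read as counts without scaling. Per the submitters' processing notes, the aligner Bowtie 0.12.2 is named, and so are the builds rn4 and rn5, with no role or order. Adapter trimming, the miRNA annotation and any low-count rule were likewise not given. Each table held 203 rows. The row Others, which names no miRNA, held 5.41% of all counts in control and 12.5% in swim and stayed out of totals. The 9 rows marked with an asterisk repeated unmarked rows and were left out. The name let-7e, listed in 2 unmarked rows, stayed in the totals without a ratio. Numbered copies of a hairpin with equal counts, such as those of mir-29b, were each kept in the totals and as entries. The first 81 rows fall in the swim-to-control ratio and the others in the control count, so results refer to a first, high-count and a second, low-count part. The lowest count of either library was 1, held by 8 entries in control and 16 in swim. Whether it stands for no read was not given, and such entries were not left out of the calls.

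Counts were divided by the total of unmarked miRNA rows. Ratios carry exact conditional binomial (Clopper-Pearson) 95% intervals, and changes of count ratios carry Woolf intervals (scipy 1.17.1). The rule and both intervals were tested on counts simulated with counting error only. Such a test cannot speak to the spread between animals, PCR copies or the choice of scaling. Median-of-ratios factors, TMM factors (edgeR 4.0.16, for factors only), raw counts and other totals were alternatives. The members and lists were chosen with earlier results of these data known. The text names the 6 members, by rule the 2 non-member entries nearest in ratio among the 40 most abundant, the non-member abundance neighbours in control, and entries of the lists. The entries mir-301a, mir-361 and mir-872, and mir-30a, mir-133a, mir-1 and mir-143 as partners of mir-22, were added once their values had been seen. The number of replicates per group, 1, limits every comparison, and intervals cover counting error only.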

Additional observations from a re-analysis of the deposited data

Results flagged for a closer look

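The row Others, which names no miRNA and was not used in the totals, made up 5.41% of the deposited counts for control and 12.5% for swim. It was flagged because it is a signal outside the miRNA entries that was higher in swim than in control. What its reads are was not given in the sources used here. With it in the total, the combined share of the 6 entries was 36.1% in control and 29.2% in swim.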

How the results depend on the processing

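Log2 ratios are given in the order mir-22, mir-191a, mir-26a, mir-26b, mir-10a and mir-10b. On library totals they were -0.51, -0.63, 0.12, -0.04, 0.07 and 0.43. Median-of-ratios factors gave 0.085, -0.039, 0.71, 0.55, 0.67 and 1.02. TMM factors gave -0.21, -0.33, 0.42, 0.26, 0.38 and 0.73, and raw counts gave -0.12, -0.25, 0.51, 0.34, 0.46 and 0.82. With the total left without the 6 entries they were -0.62, -0.74, 0.011, -0.15, -0.033 and 0.32. With Others added they were -0.62, -0.75, 0.0047, -0.16, -0.039 and 0.32. With the median of the table's first part set to 1, chosen after seeing the data, they were -0.60, -0.72, 0.028, -0.13, -0.016 and 0.34. Leaving mir-143 out of the total gave -0.53, -0.66, 0.095, -0.067, 0.051 and 0.41. These shifts follow from the divisor alone, which is the same for every entry of a library, and a pseudocount of 5 moved none of the 6 beyond its counting interval.

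The count of called members was 0 on library totals, 1 under median-of-ratios factors (mir-10b) and 1 with a size rule of 1.5-fold (mir-191a). It was 0 under TMM factors, raw counts, a 3-fold rule and no filter on the summed count. Over all tested entries, the 6 higher and 57 lower calls became 18 and 26 under median-of-ratios factors, and 9 and 64 with no filter. With Others added, the combined share of the 6 entries was 36.1% in control and 29.2% in swim, against 38.1% and 33.4%. No paired analysis was possible because each group has 1 library, and for the same reason no library could be left out. Depth limits the comparison of mir-191a with mir-425, which had 275 and 231 counts, while for the 6 members the scaling and the missing replicates are the limits.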
